A study of Rattus norvegicus with 90 samples.

Results

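The 200 genomic intervals described here were transcribed mainly in renal cells, as opposed to hepatocytes and cardiomyocytes, among 25095 intervals that were quantified beside the annotated transcripts of the rat. An interval is a target that carries no gene name and is identified only by its chromosome, start and end. Intervals of the Y chromosome were left out, which left 25072. Levels are given as CPM, the estimated counts of an interval per 1000000 estimated counts on annotated transcripts of the same library. The intervals were ranked by the log2 ratio of the mean CPM in renal cells to the larger mean of the other cell types, with 0.1 CPM added to each side, in the vehicle cultures at 9 h. The top 200 of the 5594 intervals with a renal mean of at least 0.5 CPM were taken, and each is named here by its rank, from R1 to R200. The members were thus chosen by the measured levels of the vehicle libraries at 9 h, and those values are given only as a description.

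RNA was sequenced from cultured cells labelled as from Sprague-Dawley rats in 90 libraries, 5 in each of 18 groups. The groups labelled Renal tube epithelial cells received vehicle, which was their culture medium, or thioacetamide-S-oxide at a low dose of 0.125 mM or a high dose of 0.5 mM, and RNA was taken after 9 or 24 h. Primary hepatocytes received 0.025 or 0.125 mM, and Cardiomyocytes received 0.5 or 1.5 mM, beside their own vehicle groups at the same times, and the source and vehicle of the cardiomyocytes were not given in the sources used here. Thioacetamide-S-oxide is a metabolite of the liver toxicant thioacetamide, and the study asked how its effect on cultured cells relates to injury in the animal. The renal cells were bought cryopreserved and plated on poly-L-lysine, so they were cultured cells outside the tubule, and the number of animals behind the libraries was not given in the sources used here. Nothing states that the 5 libraries of a group came from separate cultures or animals, so the p-values measure the spread between these libraries, which may be technical.

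The epithelium of the renal tubule takes back salt, glucose, amino acids and filtered protein from the primary urine, and its proximal part is also where many toxicants enter kidney cells. Each cell type transcribes, beside the genes it shares with other cells, a set of loci that is characteristic of its origin. Transcription outside annotated genes can come from unannotated exons, long untranslated ends, long noncoding RNAs or antisense transcripts, and libraries enriched for poly-A RNA capture those that carry a poly-A tail. No table used here paired the intervals or the transcripts with genes of the build Rnor_6.0, on which the quantification was based. Neither the genes at these intervals nor the marker genes of the labelled cell types could therefore be given, and no sequence was read. Whether the intervals lie outside annotated genes was not checked.

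The renal libraries held between 10729341 and 36106568 estimated counts on transcripts (median 25700778). Hepatocyte vehicle library MS-183 at 24 h stood apart. It had 249303 estimated counts on transcripts, which was 8.33% of its total, and a summed level of 69234 CPM over the 200 intervals, against 83.4 to 199.6 CPM in the other 4 libraries of its group. It was left out of every value below unless it is named. Among the renal libraries, low-dose library MS-145 at 24 h held 14178701 estimated counts on transcripts, against at least 29413606 in the other 4 of its group. It gave the highest or the lowest value of its group in 78.0% of the 200 members, against 27.0% to 37.5% for each of the other 4. The main counts that use the low dose at 24 h are given with and without it.

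The log2 ratio that ranked the members ran from 2.07 to 8.67 with a median of 2.98, and the renal mean in the vehicle cultures at 9 h ran from 0.542 to 359.6 CPM with a median of 4.29 CPM. At the end of the list, interval R200 (chr4:147662169-147682168) had a renal mean of 1.95 CPM and a ratio of 2.07. Interval R201 (chr1:70211159-70222463), the nearest one outside, had a renal mean of 15.5 CPM and a ratio of 2.06. The list therefore had no gap at its edge. Of the other cell types, hepatocytes had the larger mean at 48.5% of the members and cardiomyocytes at 51.5%, so the members were set apart from both in like numbers.

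Position and length had no part in the ranking. The 200 members lay on 21 chromosomes and 1 unplaced scaffold, and made up between 1.29% (chromosome 20) and 4.85% (chromosome 13) of the expressed intervals of each chromosome. The scaffold KL567939.1 differed, with 5 of its 6 expressed intervals (83.3%) among the members. The shortest member had 1159 bases and the median length was 14094 bases, while 40.0% had the full 20000 bases that no interval exceeded. Among the other 5394 intervals that passed 0.5 CPM in renal cells the median length was 15704 bases and 39.8% had 20000 bases, so that the members and the other expressed intervals were alike in this share. Per length, the members had a median of 0.383 CPM per kilobase in the renal vehicle cultures at 24 h, against 0.138 CPM per kilobase for the other expressed intervals. The median levels were 4.11 and 1.54 CPM. A high renal level favours a high rank, so this difference in part restates the choice. Because Kallisto divides a read among the targets it fits, an estimated count need not be whole. The counts of 15 members were whole, within 0.001, in all 30 renal libraries.

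A part of the members lay side by side. Members less than 20 kilobases apart formed 8 runs with 30 members in all, and the other 170 members stood alone. The longest run had 7 members between chr10:84114158-84200379, a span of 86222 bases, with gaps of 2765 to 14679 bases between them. All 7 intervals of the series inside that span were members, and they held the top ranks, R1 and R2. The next runs had 6 members of the 8 intervals at chr3:61599005-61685118, 5 of the 6 at chr7:144568081-144647086 and 4 of the 6 at KL567939.1:79233-128651. The remaining 4 runs were pairs, at chr1:264472938-264504091, chr4:82272395-82284350, chr1:99717150-99729203 and chr12:24745536-24766850.

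The intervals nearest to the members were looked at in the vehicle cultures at 24 h, which the ranking had not used. Of the members, 71.5% had their nearest interval within 50 kilobases, and for 21 of them it was a member itself. Of the nearest intervals that were no members, 38 (31.1%) had a higher mean in renal cells than in both other cell types, with a median log2 ratio of -0.61 (0.1 CPM added to each side). Beside the other expressed intervals this held for 593 of 4282 such intervals (13.8%), with a median log2 ratio of -0.88. This is a description without a test, since neighbouring intervals may belong to the same transcript as the interval that was chosen and are not independent.

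The members together stood at 2424 to 2497 CPM in the 5 renal vehicle libraries at 24 h, which the ranking had not used (mean 2455 ± 28.6, SD, n = 5). The 4 hepatocyte vehicle libraries at 24 h held 83.4 to 199.6 CPM of them (131.4 ± 50.8, SD, n = 4) and the 5 cardiomyocyte libraries 160.65 to 183.03 CPM (170.4 ± 8.12, SD, n = 5). In every group of hepatocytes and cardiomyocytes, at either time and any dose, the mean summed level was between 91.9 and 198.6 CPM. No library of the other cell types came near the lowest renal library of any group, which had 1667 CPM, apart from MS-183. In bulk RNA, fewer cells of a type and less RNA per cell cannot be told apart. A few members carried a large part of the renal sum. In the renal vehicle cultures at 24 h, 196 members had a mean of at least 0.5 CPM, 56 reached 10 CPM and 2 reached 100 CPM, and the 10 most abundant members held 39.9% of the sum.

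**Figure D1:**
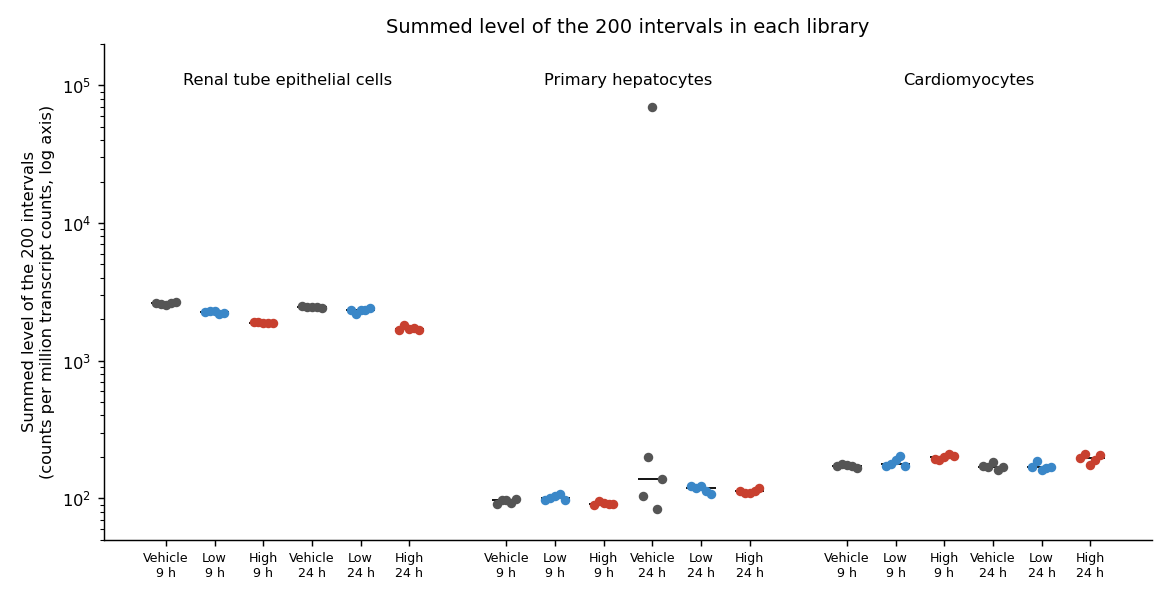
Summed level of the 200 intervals in each of the 90 libraries, in CPM on a log axis, by cell type, dose and time. Points are libraries and the line is the median of the 5. Renal libraries lie between 1667 and 2674 CPM and the other libraries between 83.4 and 209.6 CPM, apart from hepatocyte library MS-183 at 69234 CPM.

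For the vehicle libraries at 24 h, cell types were compared by a quasi-likelihood fit in edgeR. Here and below it was made on all targets, p-values were adjusted over all of them by the Benjamini-Hochberg (BH) method, and SE is the error of a log2 fold change. A target was called when its adjusted p-value was at most 0.05 and its natural-log fold change at least 0.41 in size. The study used these numbers too, but set the second on the effect size of the program Sleuth, so that its limit and the one on an edgeR fold change are not the same. Against hepatocytes, 93.4% of the 197 members that passed the filter on low counts were higher in renal cells and 0 were lower, where 16.2% of the intervals tested were higher and 48.5% lower. Of all 27432 targets tested, 7738 were higher and 9597 lower. The hepatocyte libraries used here were uneven. Their sums over all intervals were 189281 CPM for MS-181, 93366 for MS-182, 69064 for MS-184 and 89826 for MS-185. With each of them left out in turn, between 3783 of 9247 intervals (without MS-182) and 5728 of 10150 (without MS-184) were lower. The part of this unevenness in the 48.5% was not tested. Against cardiomyocytes, 191 of 191 members tested were higher and 0 lower, where 19.2% of the intervals tested were higher and 27.1% lower. Of all 24886 targets tested, 5480 were higher and 6394 lower. The median log2 fold change of the members was 3.49 against hepatocytes and 4.07 against cardiomyocytes, and it was the same when members with 0 counts in the other cell type were set to the limit that a count of 0 allows (3 counts over the group). These counts repeat in other libraries the difference that the ranking chose, and members near 0 in the other cell type could pass the filter on low counts only through their renal libraries, so these counts are a description of how the level held from 9 to 24 h. All renal libraries lay above all hepatocyte libraries for 92.5% of the members and above all cardiomyocyte libraries for 99.5%, where 23.2% and 21.5% of the other 5394 intervals at 0.5 CPM or more did so. With library MS-183 included, 23 members were higher and 8 lower than in hepatocytes (11.7% and 4.08% of those tested), where 1.88% of the intervals tested were higher and 72.1% lower. The median log2 fold change was then -3.21 for the members and -6.57 for all intervals tested.

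The exceptions were few. Interval R178 (chr11:66972879-66992878) had 1.10 CPM in renal vehicle cultures at 24 h and 1.11 CPM in hepatocytes, and its log2 fold change was -0.06 (SE 0.39, BH-adjusted p = 0.896). Interval R184 (chr12:6562496-6582495) had 2.19 CPM in renal vehicle cultures at 24 h, and its mean in cardiomyocytes reached 2.68 CPM at the high dose at 24 h, against 0.4202 CPM in their vehicle cultures. These were the only members at which a group of another cell type reached the renal vehicle level, and both were singled out after their values were seen. Outside MS-183, 4 members had 0 counts in all hepatocyte vehicle libraries at 24 h and 14 had 0 counts in all cardiomyocyte ones, which allows a level of up to 0.034 CPM and 0.0232 CPM, respectively, for counting error only.

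Interval R1 (chr10:84123891-84130994, 7104 bases) headed the ranking. Its renal vehicle libraries at 24 h held 62.6, 59, 62, 61.2 and 64.5 CPM, and the 5 cardiomyocyte libraries held 1 count between them. The hepatocyte libraries held 0.0994, 0.584, 0.0354 and 0.638 CPM. Interval R2 (chr10:84139138-84147335), the next one along the same run, had 44.2, 38.5, 42.5, 38.2 and 40.4 CPM in renal cells and 2 counts in all cardiomyocyte libraries together. At both intervals the renal libraries were close to each other and the other cell types were near 0.

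Intervals R3 to R5 lay apart from that run. Interval R3 (chr18:3941325-3957932) held 80, 74.4, 74.7, 76 and 78.1 CPM in renal vehicle libraries at 24 h, against 0.213 ± 0.0853 CPM in hepatocytes (SD, n = 4) and 0.787 ± 0.275 CPM in cardiomyocytes (SD, n = 5). Interval R4 (chr9:47329340-47334922) held 12.2, 14.5, 13.3, 12.5 and 12.5 CPM, against 0.148 ± 0.151 and 0.0131 ± 0.0179 CPM in the same order. The fifth, interval R5 (chr1:264490550-264504091), held 10.8, 10.5, 10.3, 11.1 and 8.75 CPM, against 0.632 ± 0.405 and 0.0733 ± 0.054 CPM. For each of these 3 the lowest renal library was over 8 CPM and the highest library of the other cell types was under 2 CPM.

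The order by level was different from the order by ratio. The most abundant member in renal vehicle cultures at 24 h was interval R54 (chr6:46622855-46629474), with 213.1, 215, 209.4, 207.6 and 210.5 CPM, followed by interval R9 (chr2:46993384-46999822) with 114.9, 136.98, 109.7, 112.5 and 141.7 CPM. Next came interval R149 (chr2:187898812-187902801) with 96.7 ± 2.39 CPM, interval R31 (chr6:135571445-135591444) with 92.1 ± 4.31 CPM and interval R80 (chr20:7746832-7761826) with 88.1 ± 4.65 CPM (SD, n = 5 each). The spreads of the last 3 overlapped from one to the next. Per length the order among these 5 changed. Interval R54 had 31.9 CPM per kilobase, interval R149 had 24.2, interval R9 had 19.1, interval R80 had 5.88 and interval R31, which is 20000 bases long, had 4.61 CPM per kilobase. Interval R54 was at 11.8 ± 0.619 CPM in cardiomyocytes (SD, n = 5) and at 0.188 ± 0.220 CPM in hepatocytes (SD, n = 4), so the ratio was set by the cardiomyocytes.

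**Figure D2:**
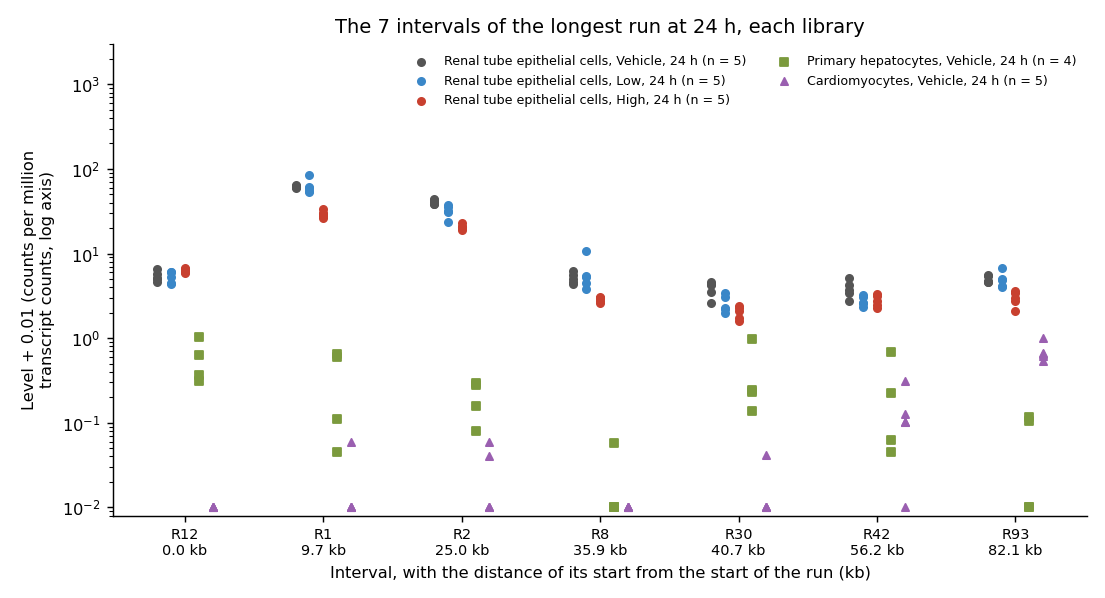
Level of the 7 intervals of the run on chromosome 10 at 24 h, in CPM plus 0.01 on a log axis, ordered by distance from the start of the run. Each point is a library of the renal cells at 3 doses or of the vehicle-treated hepatocytes (n = 4) and cardiomyocytes (n = 5). Interval R1 and interval R2 stand highest in renal cells, the other 5 stay below 11 CPM, and all 7 lie near 0 in cardiomyocytes except interval R93.

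In the run on chromosome 10 the level fell off to both sides of intervals R1 and R2. In the renal vehicle cultures at 24 h the run as a whole stood at 125.95 ± 3.83 CPM (SD, n = 5), of which interval R1 made 61.9 ± 1.998 CPM and interval R2 made 40.8 ± 2.58 CPM. Interval R12 (chr10:84114158-84119383), upstream by coordinate, had 5.39 ± 0.780 CPM. Interval R8 (chr10:84150101-84151651), the shortest of the run at 1551 bases, had 5.17 ± 0.757 CPM. Intervals R30 (chr10:84154861-84165449), R42 (chr10:84170408-84181617) and R93 (chr10:84196297-84200379) had 3.87 ± 0.806, 3.87 ± 0.891 and 5.01 ± 0.479 CPM (SD, n = 5 for each value). Hepatocytes held 1.80 ± 1.38 CPM over the run (SD, n = 4) and cardiomyocytes 0.839 ± 0.222 CPM (SD, n = 5). Of the cardiomyocyte sum, interval R93 made 0.686 ± 0.180 CPM, while intervals R12 and R8 had 0 counts in all 5 libraries. The runs on chromosomes 3 and 7 and on the scaffold stood lower in renal vehicle cultures at 24 h, at 17.0 ± 2.20, 19.95 ± 1.78 and 14.2 ± 1.06 CPM (SD, n = 5), and at most at 1.58 CPM on average in either of the other cell types.

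At the high dose the members fell more often than they rose. The comparison of 0.5 mM with vehicle at 24 h asks how exposure changed them, and it uses no library of the ranking. The ranking did require a high level in unexposed renal cells relative to the other cell types. Intervals high only under exposure could thus not enter, and the other expressed intervals needed only 0.5 CPM. The part of this choice in the lean to decreases was not tested. All 200 members were tested. At the limits given above, 95 were lower and 17 were higher, while 23.7% of the intervals tested were higher and 9.39% lower, so intervals in general leaned the other way. Of all targets, 15.6% were higher and 13.4% lower. The median log2 fold change of the members was -0.59 (range -3.80 to 3.55), that of all targets was 0.07 and that of the 5307 other expressed intervals tested was 0.11. The summed level went from 2424 to 2497 CPM in the vehicle libraries to 1667 to 1804 CPM at the high dose (1713 ± 55.9, SD, n = 5), without overlap. For 91 members all 5 high-dose libraries lay below all 5 vehicle libraries, and for 23 all lay above, which was 45.5% and 11.5% of the members, where 10.5% and 20.2% of the other 5394 intervals at 0.5 CPM or more separated in the same ways. Split by the mean level over the vehicle and high-dose libraries at 24 h, 24 of the 47 members with at least 10 CPM were lower and 0 were higher at the limits on p and fold, where 11.8% of the other expressed intervals of that level were lower and 11.5% higher. Of the 83 members between 2 and 10 CPM, 42 were lower and 12 higher, and of the 70 below 2 CPM, 29 were lower and 5 higher. The other expressed intervals had 11.6% lower and 20.1% higher between 2 and 10 CPM, and 9.49% lower and 21.8% higher below 2 CPM.

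**Figure D3:**
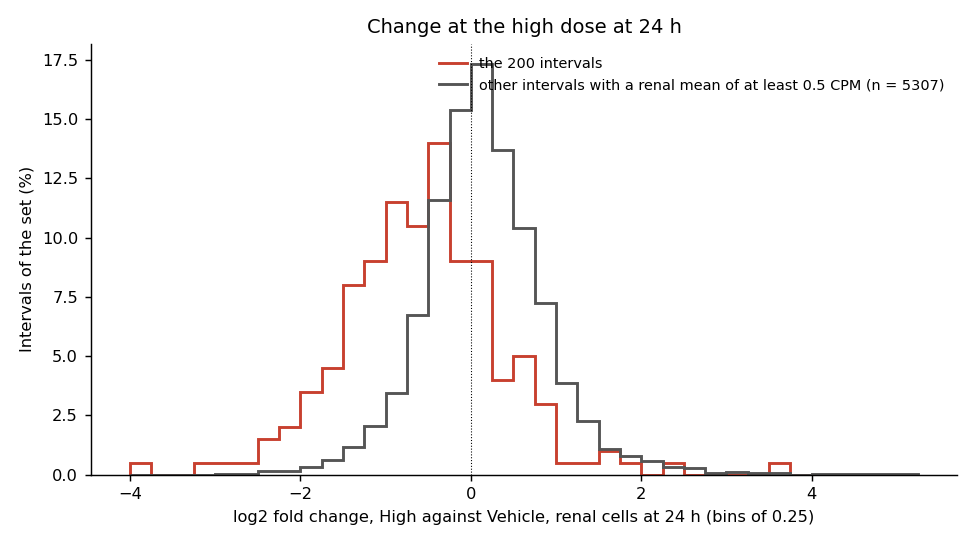
Distribution of the log2 fold change of the high dose against vehicle in renal cells at 24 h, as the percentage of each set in bins of 0.25, for the 200 intervals and for the 5307 other expressed intervals tested. The members are shifted to the left, with a median of -0.59 against 0.11.

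The 5 largest decreases, among members without overlap between the groups, were all of members below 13 CPM. Interval R39 (chr16:31669945-31689944) held 11, 7.77, 11.4, 12.8 and 8.72 CPM in vehicle libraries at 24 h and 0.762, 0.633, 0.492, 0.911 and 1.08 CPM at the high dose. This was the largest decrease of any member, and its log2 fold change was -3.80 (SE 0.21, BH-adjusted p = 8.82e-08). Interval R53 (chr9:49069190-49089189) held 3.37, 3.28, 3.08, 2.77 and 3.67 CPM in vehicle libraries and 0.229, 0.46, 0.417, 0.636 and 0.21 CPM at the high dose, and the log2 fold change was -3.11 (SE 0.28, BH-adjusted p = 4.18e-06). Interval R133 (chr18:12038554-12055612) held 2.42, 2.05, 2.84, 2.61 and 2.08 CPM in vehicle libraries and 0.496, 0.336, 0.168, 0.258 and 0.473 CPM at the high dose, and the log2 fold change was -2.85 (SE 0.26, BH-adjusted p = 5.15e-06). At these 3 members the highest high-dose library was far below the lowest vehicle library. Interval R157 (chr3:94041061-94061060) held 2.24, 2.05, 2.78, 2.57 and 2.13 CPM in vehicle libraries and 0.0938, 0.757, 0.409, 0.228 and 0.396 CPM at the high dose, and interval R126 (chr18:86397564-86417563) held 4.15, 5.41, 3.94, 4.08 and 3.72 CPM and then 0.745, 0.794, 0.607, 1.24 and 0.739 CPM. Their log2 fold changes were -2.71 (SE 0.39, BH-adjusted p = 0.000163) and -2.42 (SE 0.20, BH-adjusted p = 2.24e-06). With so few counts at the high dose, 53 in all 5 libraries for interval R157, the depth of the remaining level is uncertain, but the groups stayed apart in each case.

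Fewer members rose. The largest increase was that of interval R131 (chr9:114732317-114748339), from 0.883, 1.74, 0.84, 0.878 and 0.727 CPM in vehicle libraries to 11.4, 10.5, 12.7, 12 and 12.3 CPM at the high dose at 24 h, and the log2 fold change was 3.55 (SE 0.20, BH-adjusted p = 9.01e-08). Interval R48 (chr2:252008061-252018096) went from 2.05, 2.64, 2.6, 1.91 and 3.44 CPM to 15.1, 15.2, 12.8, 16.5 and 14.4 CPM, and the log2 fold change was 2.50 (SE 0.17, BH-adjusted p = 4.91e-07). Interval R166 (chr10:86611689-86616284) went from 3.27, 4.28, 3, 2.8 and 3.08 CPM to 13.6, 11, 11.6, 10.7 and 10.8 CPM, and the log2 fold change was 1.77 (SE 0.13, BH-adjusted p = 7.33e-07). In each the lowest high-dose library was over 2 times the highest vehicle library. Interval R41 (chr1:187994775-188014774) rose from 3.79, 4.26, 4.36, 4.06 and 4.62 CPM to 13, 14, 13.1, 14.5 and 13.1 CPM, and interval R86 (chr7:144691353-144711352) from 2.51, 2.42, 2.01, 2.09 and 1.89 CPM to 6.54, 7.94, 7.2, 6.11 and 6.29 CPM. Their log2 fold changes were 1.62 (SE 0.09, BH-adjusted p = 1.01e-07) and 1.59 (SE 0.12, BH-adjusted p = 1.27e-06). Interval R86 lies beyond the end of the run on chromosome 7 and is not part of it.

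**Figure D4:**
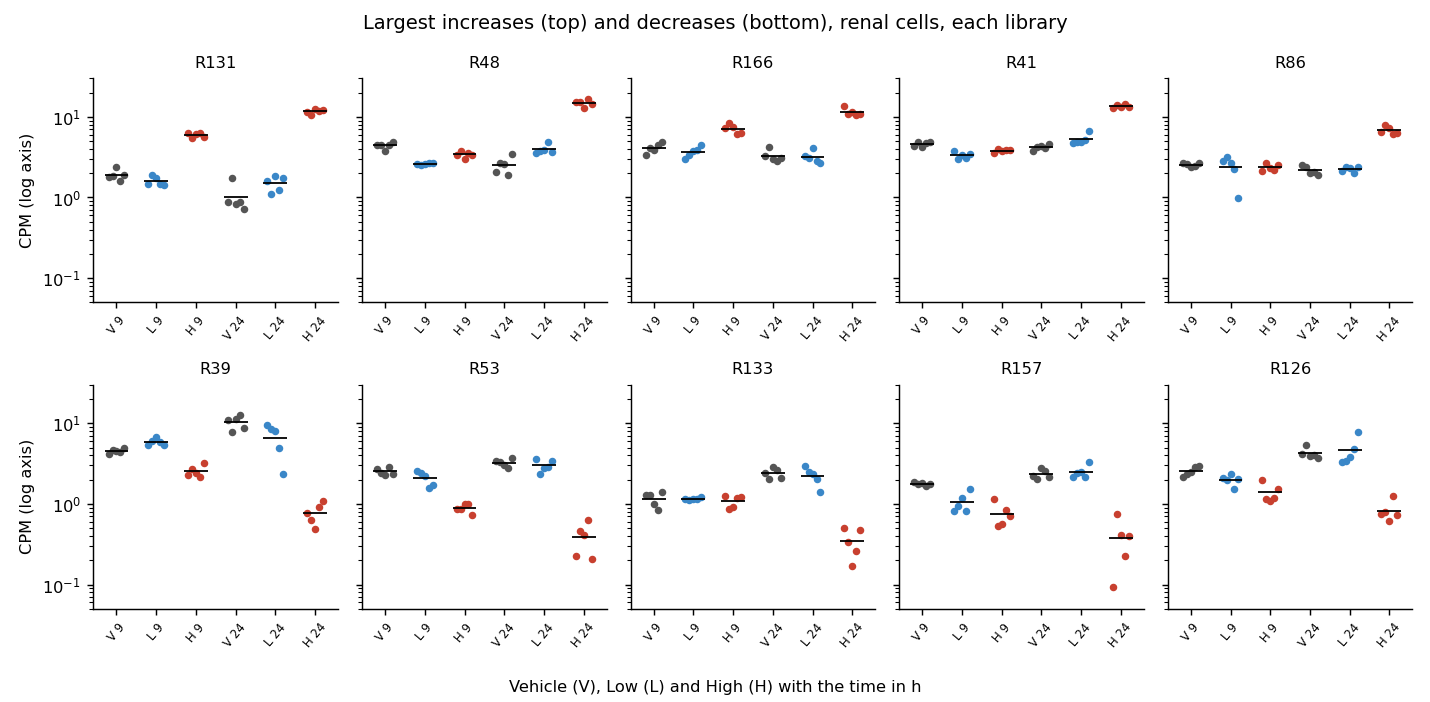
Level of the 5 members with the largest increases (top) and of the 5 with the largest decreases (bottom) at the high dose at 24 h, in CPM on a log axis, in each renal library. Points are libraries, lines are means of 5, and V, L and H stand for vehicle, low and high dose. Intervals R48, R41 and R86 stand highest at the high dose at 24 h, while intervals R131 and R166 are also higher at the high than at the low dose at 9 h.

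The abundant members went in different directions. Interval R54 fell from 211.1 ± 2.94 to 46.0 ± 2.76 CPM at the high dose (47.9, 48.5, 41.7, 46.9 and 44.8 CPM in the libraries), and the log2 fold change was -2.26 (SE 0.06, BH-adjusted p = 5.35e-10). Interval R31 fell from 99.3, 91.7, 90, 91.8 and 87.9 CPM to 27.9, 25.2, 23.8, 30.5 and 25.6 CPM (log2 fold change -1.85, SE 0.07, BH-adjusted p = 5.70e-09 by the same test). Intervals R149 and R80 fell as well, from 96.7 to 36.8 ± 2.14 CPM and from 88.1 to 43.9 ± 2.89 CPM (SD, n = 5), by 1.45 and 1.07 on the log2 scale. Interval R9 had 177.1, 235.3, 165.02, 208.3 and 164.7 CPM at the high dose, above all 5 vehicle libraries, and interval R3 had 111.4, 123.96, 116.95, 118.01 and 112.6 CPM, also above all of its vehicle libraries. Their log2 fold changes of 0.57 (SE 0.14, BH-adjusted p = 0.00515) and 0.55 (SE 0.05, BH-adjusted p = 9.06e-06) in edgeR's test had adjusted p-values within the limit and sizes below the fold limit, so neither was called.

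Within the run on chromosome 10 the members did not all change alike. The run as a whole went from 121.4 to 130.9 CPM in vehicle libraries at 24 h to 62.5 to 71.9 CPM at the high dose, without overlap, and 5 of its 7 members were called lower. Of all intervals tested in this comparison, 9.39% were called lower and 23.7% higher. Interval R1 went to 27.5, 33.8, 26.3, 30.2 and 29 CPM (log2 fold change -1.13, SE 0.08, BH-adjusted p = 6.59e-07). Interval R2 went to 18.9, 20.4, 23.2, 20.4 and 20.8 CPM (log2 fold change -1.03, SE 0.06, BH-adjusted p = 1.71e-07). Intervals R8, R30 and R93 had log2 fold changes of -0.91, -0.996 and -0.81, with adjusted p-values of 4.45e-05, 0.000397 and 0.00175 in the same edgeR fit. Interval R42 had -0.52 (adjusted p = 0.0323), below the fold limit. At interval R12 the vehicle libraries held 5.16, 4.94, 6.55, 5.76 and 4.55 CPM and the high-dose libraries 6.28, 6.48, 5.87, 6.79 and 6.11 CPM, which overlapped, and its log2 fold change was 0.17 (SE 0.10, BH-adjusted p = 0.201).

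The other runs differed among themselves. On chromosome 3 the sum went from 17.0 ± 2.20 CPM in vehicle cultures to 11.1 ± 1.08 CPM at the high dose (SD, n = 5), and 3 of the 6 members were called lower. On chromosome 7 it was 19.95 ± 1.78 CPM and 18.0 ± 0.567 CPM, and 0 of the 5 members were called in either direction, with log2 fold changes between -0.48 and 0.34. Of these 5, interval R18 (chr7:144584845-144595459), picked after the values were seen, was within the p limit and below the fold limit, and its log2 fold change was -0.48 (SE 0.09, BH-adjusted p = 0.00086 in edgeR). On the scaffold KL567939.1 it went from 14.2 ± 1.06 to 9.14 ± 1.45 CPM, with 2 of the 4 members lower. The pair at chr1:99717150-99729203 was the only run in which members were called higher, and it went from 6.48 ± 0.337 to 10.9 ± 0.415 CPM (SD, n = 5). Its members, intervals R24 and R97, likewise picked after the values were seen, had log2 fold changes of 0.71 and 0.68. In all, 11 of the 30 members in runs were lower and 2 higher, and 84 of the 170 members outside runs were lower and 15 higher. Of all intervals tested in this comparison, 9.39% were lower and 23.7% higher.

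The low dose left the members near the vehicle level at 24 h. At 0.125 mM the summed level was 2330, 2200, 2323, 2330 and 2422 CPM, which lay below the vehicle range of 2424 to 2497 CPM in every library. In edgeR's test 0 of 200 members were called higher and 0 lower, where 0.0146% of the intervals tested were called higher and 0.00% lower (0.0367% and 0.00816% of all targets). At an unadjusted p-value under 0.05, 7 members were higher and 11 lower (3.5% and 5.5%, against 4.81% and 1.57% of all intervals tested). Without library MS-145, 5 were higher and 23 lower (2.5% and 11.5%, against 2.16% and 3.64%). With all 6 renal groups in a single fit they were 34 and 22 (17% and 11%, against 15.1% and 2.59%). Fitted on the low-dose and vehicle libraries alone, the median log2 fold change of the members was 0.07, against 0.17 for all intervals tested. Without MS-145 it was -0.08 against -0.01. With all libraries it was -0.06 in limma, with 79 of the 200 members above 0, and the median log2 ratio of mean CPM was -0.05, so that its sign changed with the library and with the method. It stayed above 0 in DESeq2 (0.07) and with library size over all targets (0.04). With all libraries, DESeq2 and limma each called 0 higher and 1 lower. This member was interval R88 (chr4:62110545-62130544), singled out after the values were seen. Its vehicle libraries held 16, 12.2, 14.3, 12.7 and 12.6 CPM, its low-dose libraries 6.79, 4.77, 7.18, 6.06 and 6.04 CPM, and its high-dose libraries 3.28, 3.32, 3.64, 3.51 and 3.84 CPM. The 3 doses did not overlap with each other. The log2 fold change at the low dose was -0.9998 (SE 0.17, BH-adjusted p = 0.118), and without library MS-145 it was -1.13 with an adjusted p-value of 0.0049, which was a call. At the high dose interval R88 was called lower, and its log2 fold change was -2.004 (SE 0.09).

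Compared directly at 24 h, the doses differed for 95 members. The high-dose cultures had 83 members lower and 12 higher than the low-dose cultures, where 9.75% of the intervals tested were higher and 7.15% lower (8.83% and 9.97% of all targets), and the median log2 fold change of the members was -0.61. Without library MS-145 the counts were 85 lower and 19 higher, where 7.05% of the intervals tested were lower and 21.6% higher, and the median of the members was -0.51. This comparison shares its high-dose libraries with the comparison against vehicle above. Interval R1 shows the weight of that library, with 54.8, 53.7, 60.3, 61.5 and 84.3 CPM at the low dose, the last of them in MS-145. Its log2 fold change between the doses was -1.35 (SE 0.25, BH-adjusted p = 0.00244), and -1.03 (SE 0.10, BH-adjusted p = 3.30e-05) without that library.

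At 9 h the vehicle libraries had chosen the members, so the test was made between the doses. Of the 197 members tested, 55 were lower and 9 were higher at the high dose than at the low dose. Of the intervals tested 17.4% were higher and 4.46% lower, and of all targets 9.53% were higher and 6.02% lower. The median log2 fold change of the members was -0.35. The summed level was 2187 to 2315 CPM at the low dose (2255 ± 54.4, SD, n = 5) and 1874 to 1919 CPM at the high dose (1893 ± 17.2, SD, n = 5), without overlap. Interval R54 went from 148.9, 156.3, 145.7, 126.7 and 139.2 CPM to 52.2, 56.3, 54.1, 57.1 and 60.4 CPM, and the log2 fold change was -1.34 (SE 0.06, BH-adjusted p = 1.43e-08). Interval R3 went the other way, from between 113.4 and 135.4 CPM to 211.5, 202.2, 208.3, 209.2 and 199.7 CPM, and its log2 fold change was 0.74 (SE 0.05, BH-adjusted p = 2.38e-07). In the run on chromosome 10, 5 of the 7 members were lower, interval R1 with 28.2 to 30.7 CPM at the high dose against 47.8 to 51.1 CPM at the low dose.

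Against the vehicle libraries at 9 h, as a description only, 72.5% of the members had a lower mean at the high dose and 27.5% a higher one, and 54.5% had a lower mean at the low dose and 45.5% a higher one. A level that is high by chance in the vehicle libraries at 9 h favours the choice of a member, so these counts lean to lower values. Interval R31 had the highest level of any member there, with 361.3, 345.8, 349.7, 358.4 and 382.6 CPM. It stood at 53.8 to 57.4 CPM at the low dose and 36.4 to 40.5 CPM at the high dose at the same time, and at 87.9 to 99.3 CPM in the vehicle cultures at 24 h. Its level was thus lower in every other renal library than in these 5.

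Dose contrasts that share no library were set side by side. The high dose against vehicle at 24 h and the high dose against the low dose at 9 h had 46 members lower in common, which was 83.6% of those lower at 9 h and 48.4% of those lower at 24 h. In common were also 5 members that were higher (55.6% of those at 9 h and 29.4% at 24 h), and 0 were called in opposite directions. Across the 197 members tested in both, 66.5% had log2 fold changes below 0 at both times, 16.8% had them above 0 at both and 16.8% had opposite signs, with a Pearson r of 0.676 and a Spearman rho of 0.706. Among the 5242 other intervals at 0.5 CPM or more that were tested in both, the lower calls in common were 59.3% of those at 9 h and 25.7% of those at 24 h. The higher calls in common were 68% and 47.4%, and 9 intervals were called in opposite directions. Of these intervals 27.7% had log2 fold changes below 0 at both times, 44.8% above 0 at both and 27.5% opposite signs, with a Pearson r of 0.65 and a Spearman rho of 0.615, so that a relation between these contrasts was not particular to the members. These coefficients are across intervals, which are not independent replicates.

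**Figure D5:**
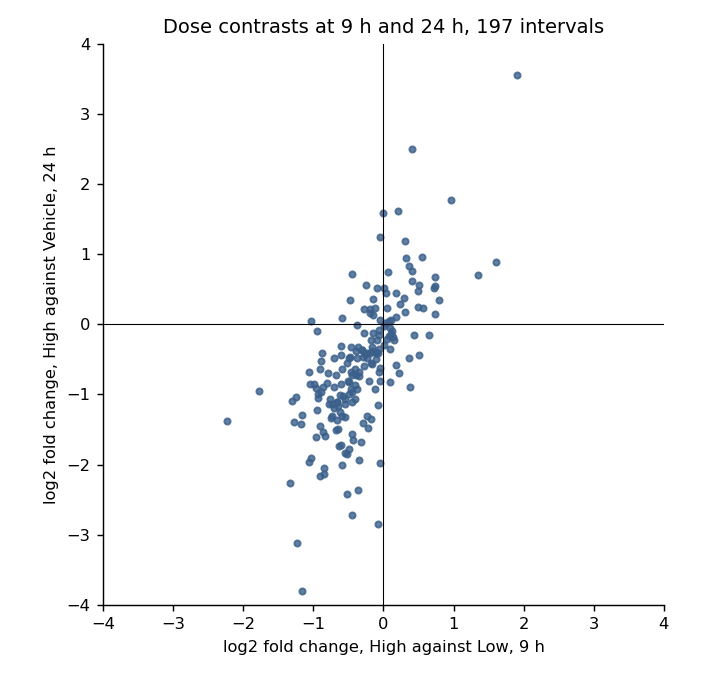
Log2 fold change of the high dose against vehicle at 24 h (vertical) and of the high dose against the low dose at 9 h (horizontal) in renal cells, for the 197 members tested in both. Each point is an interval, and 66.5% of them lie below 0 on both axes.

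Between 9 and 24 h at the high dose, 26 of 197 members were lower at 24 h and 17 were higher, where 7.36% of the intervals tested were higher and 5.75% lower (6.46% and 6.93% of all targets), and the median log2 fold change was -0.12. Interval R39 went from 2.27, 2.71, 2.45, 2.19 and 3.21 CPM at 9 h to at most 1.08 CPM at 24 h (log2 fold change -1.74, SE 0.21, BH-adjusted p = 6.49e-05). Interval R48 went from 3.39, 3.75, 3.04, 3.6 and 3.36 CPM to at least 12.8 CPM (log2 fold change 2.10, SE 0.09, BH-adjusted p = 3.75e-08). Interval R3 came down from at least 199.7 CPM at 9 h to at most 123.96 CPM at 24 h (log2 fold change -0.83, SE 0.05, BH-adjusted p = 2.67e-07). Interval R1 stayed at 29.6 ± 1.05 and 29.4 ± 2.87 CPM (SD, n = 5), and its log2 fold change was -0.02 (SE 0.08, BH-adjusted p = 0.898). Time in culture and time of exposure cannot be told apart in this comparison.

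Whether the contrast of high against low dose differed between the times was tested by the difference of the contrasts. It was more negative at 24 h than at 9 h for 34 of 200 members and more positive for 7, where 1.46% of the intervals tested were more positive and 3.01% more negative (2.62% and 3.95% of all targets), with a median of -0.35 for the members and -0.21 for all intervals tested. Without library MS-145, 34 members were more negative and 12 more positive, where 3.36% of the intervals tested were more negative and 3.12% more positive, and the medians were -0.20 and 0.03. In limma, with all libraries, 18 members were more negative and 11 more positive, where 2.02% of the intervals tested were more negative and 2.63% more positive. Interval R133 had the most negative value of the members named here, -2.74 (SE 0.31, BH-adjusted p = 5.82e-06), and -2.80 without MS-145. At 9 h its doses overlapped, with 1.14, 1.11, 1.14, 1.14 and 1.22 CPM at the low dose and 1.25, 0.868, 0.92, 1.18 and 1.22 CPM at the high dose. At 24 h they were 2.96, 2.49, 2.33, 2.06 and 1.42 CPM against at most 0.496 CPM. Interval R86 had the most positive one, 1.43 (SE 0.32, BH-adjusted p = 0.0057) and 1.56 without MS-145, with 2.14 to 2.67 CPM at the high dose at 9 h and 6.11 to 7.94 CPM at 24 h.

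In the other cell types the members stayed low at every dose. Hepatocytes had 89.7 to 96.1 CPM of them in total at the high dose at 9 h against 90.4 to 98.8 CPM in vehicle cultures, and 108.5 to 118.4 CPM at 24 h against 83.4 to 199.6 CPM. Cardiomyocytes had 188.3 to 208.8 CPM at the high dose at 9 h against 165.6 to 177.6 CPM, and 175.6 to 209.6 CPM at 24 h against 160.65 to 183.03 CPM. The cardiomyocyte groups did not overlap at 9 h and overlapped at 24 h. At 9 h this is a description only, since the ranking used these vehicle libraries. A level that is low by chance there favours the choice of a member, so values against them lean to higher ones. At the low dose the range was 96.9 to 106.8 CPM in hepatocytes at 9 h, 107.6 to 123.2 CPM at 24 h, and 171.2 to 201.9 and 159.9 to 187.0 CPM in cardiomyocytes. The median log2 ratio of the high-dose mean to the vehicle mean over the members was 0.02 in hepatocytes at 9 h, -0.37 at 24 h, and 0.03 and 0.02 in cardiomyocytes. For the low dose it was 0.115 in hepatocytes at 9 h, -0.315 at 24 h, and 0.20 and 0.02 in cardiomyocytes, where 67.5% of the members were above vehicle at 9 h. At 24 h, 67% of the members were below vehicle in hepatocytes at either dose, against 73.5% in renal cells at the high dose. In hepatocytes 43 members at the low and 38 at the high dose were at least 2-fold below, and 11 at either dose as far above. In cardiomyocytes at 24 h, 17 and 14 were at least 2-fold above, and 0 and 4 as far below. The doses differed between the cell types, and these changes were not tested against the change in renal cells.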

How the data were processed

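The authors pseudo-aligned paired reads of poly-A-enriched libraries to the Rnor_6.0 transcriptome with Kallisto (version 0.42.4 in the submitters' processing notes). They deposited for each library the estimated count and the TPM of 65166 targets, 40071 transcripts and 25095 genomic intervals. How the intervals were made is not given in the sources used here. The deposited TPM values were not used, because they depend on all targets of a library, and results rest on the estimated counts.

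Estimated counts were rounded and all targets outside the Y chromosome were fitted together by edgeR 4.0.16 (R 4.3.3), after filterByExpr and with TMM factors and library sizes taken from transcripts. The quasi-likelihood functions glmQLFit and glmQLFTest gave the p-values, which were adjusted by Benjamini-Hochberg over every target tested. In all, 8 comparisons were made. Calls were limited to adjusted p-values up to 0.05 with a natural-log fold change whose size reached 0.41, the number that the study set on Sleuth's effect size, which is not an edgeR fold change. Standard errors are the log2 fold change divided by the square root of the F statistic. Hepatocyte library MS-183 was left out. The functions were tested on simulated data. Over 176 pairs of libraries within groups, the chi-square statistic of transcript counts was at least 4.32 per degree of freedom, so no pair was within sampling noise.

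Groups came from the sample labels, which give no batch. The intervals named are the top 5 by ratio, the 5 most abundant, the 5 largest increases and 5 largest decreases without overlap at the high dose at 24 h, the longest run and both sides of the threshold, and others are marked where they were chosen after their values were seen. The members, lists and rules were chosen with earlier results of these data known. Alternatives were DESeq2 1.42.0, limma 3.58.1 on log2(CPM + 0.5), library size over all targets, no filter beyond 1 count, intervals alone, all renal groups or all vehicle groups in a single fit, other fold limits, library MS-183 included, each library left out, and other settings of the ranking and of the runs.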

Additional observations from a re-analysis of the deposited data

Results flagged for a closer look

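A library was set apart when, among the 5 of its group, the gap to its nearest neighbour was over 0.710 of the whole range. This held in 8 of the sets checked (4.6%), and chance alone flags about 1 set in 20. The summed level of the 200 intervals was 69234 CPM in hepatocyte vehicle library MS-183 at 24 h. Among renal libraries at 24 h, MS-145 of the low dose was set apart at interval R1 (84.3 CPM), interval R80 (40.3 CPM), interval R41 (6.71 CPM) and interval R8 (10.7 CPM). In the same group, MS-144 was set apart at interval R48 (4.94 CPM). MS-137 of the vehicle cultures at 24 h, the shallowest renal library with 10729341 counts on transcripts, was set apart at interval R131 (1.74 CPM) and interval R126 (5.41 CPM). The part of depth in these values was not tested.

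The contrast of high against low dose differed between 24 h and 9 h for 41 members by edgeR's test of the difference itself, with 7 more positive and 34 more negative at 24 h. On the log2 scale the difference was -2.74 at interval R133, -2.49 at interval R157, -2.22 at interval R126, -2.02 at interval R39, -1.92 at interval R53, -1.29 at interval R31 and -0.72 at interval R54. It was 1.43 at interval R86, 1.33 at interval R48, 0.95 at interval R41, 0.88 at interval R131 and 0.74 at interval R166. These values include library MS-145. Leaving it out kept every sign, with -2.24 at interval R157, -1.77 at interval R126 and 1.18 at interval R41. Without library MS-145, 12 members were more positive and 34 more negative, where 3.12% of the intervals tested were more positive and 3.36% more negative (1.46% and 3.01% with it).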

How the results depend on the processing

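Of the counts of members recomputed under the alternatives, 247 stayed within 1.5 times the reported count and 28 did not. With no limit on the fold change, the counts were 26 higher for high dose against vehicle at 24 h, 20 higher and 88 lower when the doses were compared at 9 h, and 27 higher and 51 lower for the high dose at 24 h against 9 h. Of the intervals tested, 28.6% were higher in the first of these comparisons, 23.4% higher and 9.82% lower in the second, and 11.7% and 11.3% in the third (members 13%, 10.2% and 44.7%, and 13.7% and 25.9%). With a fold change of at least 2, they were 7 higher and 60 lower for high dose against vehicle at 24 h, 6 higher when the doses were compared at 24 h, 3 higher and 14 lower for this contrast at 9 h, 5 higher and 8 lower for 24 h against 9 h, and 3 higher and 15 lower for the difference between the times. In the same order, the intervals tested gave 14.5% and 4.43% (members 3.5% and 30%), 6.95% (members 3%), 9.86% and 1.13% (members 1.52% and 7.11%), 2.79% and 1.68% (members 2.54% and 4.06%), and 0.889% and 1.67% (members 1.5% and 7.5%). With limma they were 10 higher for 24 h against 9 h (5.08%, against 3.78% of the intervals tested), and 11 higher and 18 lower for the difference between the times, where it called 2.63% of the intervals tested higher and 2.02% lower, against 1.46% and 3.01% with edgeR. At the low dose at 24 h, 2 members (intervals R48 and R131) were higher and 1 (interval R88) lower with all 6 renal groups in a single fit (1% and 0.5%, against 0.939% and 0.0756% of the intervals tested), and 1 (interval R88) was lower with DESeq2, with limma and with library size over all targets. With library MS-183 included, 11.5% of the 200 members were higher than in hepatocytes. The cause was not tested beyond what each limit sets by its construction. Members less than 100 kilobases apart formed 13 runs, and 0 runs were formed by members that touch.

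With each library left out in turn, 89% to 97% of the 200 members were higher than in hepatocytes (92% with all libraries) and 95% to 98.5% than in cardiomyocytes, and members higher were 16 to 19 for high dose against vehicle at 24 h (90 to 97 lower), 0 to 0 for low dose against vehicle (0 to 1 lower), 10 to 19 for high against low dose at 24 h (65 to 85 lower), 8 to 11 at 9 h (49 to 58 lower), 14 to 19 for 24 h against 9 h (24 to 30 lower) and 7 to 12 for the difference between the times (27 to 37 lower). Without library MS-145 came the 19 higher between the doses at 24 h and the 12 for the difference between the times. The ranking kept 196 to 199 of the 200 members. Library size over all targets moved the median log2 fold change of all targets against hepatocytes from -0.21 to 0.01. No member of the lists of named intervals set out above reversed its direction at the high dose at 24 h. Intervals chosen after their values were seen were not part of this check. Intervals R3, R9 and R42 passed the fold limit, and interval R5 missed it, in some alternatives. Low counts limit members under 1 CPM, where a library holds few counts. No paired analysis was possible because the library numbers are not shared between groups.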
